A study of Mus musculus with 3 samples.

Results

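The genes of oxidative phosphorylation were taken from RNA sequencing of 3 mouse libraries, 1 library per condition. Members were the protein-coding genes of the count table whose names mark them as subunits of complexes I to V or as assembly factors of complex I (Nduf, Sdha to Sdhd, Uqcr, Cox4 to Cox8, Atp5, and the protein genes of mitochondrial DNA). The rule found 107 of 54532 genes in the table, of which 94 lie in nuclear DNA and 13 in mitochondrial DNA, and it used no measured value.

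MICFs are cardiac fibroblasts isolated from the hearts of adult Myh6-mCherry mice 5 days after myocardial infarction (MI), in which the Myh6 promoter, active in heart muscle cells, drives a red reporter. The MICFs library came from such cells kept in culture without virus. The GMTMS library came from induced cardiomyocytes (iCMs) made by viral delivery of Gata4, Mef2c, Tbx5, Myocd and Sall4 with doxycycline in the medium, and sorted for mCherry after a 4-week induction. For the GMTMM library the labels name the same procedure with a cocktail that, in the study, holds Mesp1 in place of Sall4. In each iCM group 5 sorted samples were mixed before RNA extraction, because under 5% of the cells were mCherry positive, so a library is a mixture and no spread between cultures or animals could be measured.

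Oxidative phosphorylation passes electrons from NADH and succinate through complexes I to IV to oxygen and uses the resulting proton gradient to make ATP in complex V. Complex II is encoded wholly in the nucleus, whereas the other complexes are mosaics of nuclear subunits and of the few catalytic or membrane subunits kept in mitochondrial DNA. Adult heart muscle is rich in mitochondria, and in heart and skeletal muscle several ubiquitous subunits of complex IV, cytochrome c oxidase, are replaced by muscle isoforms, of which Cox6a2, Cox7a1 and Cox8b are the best known.

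The libraries held 11861773 counts for MICFs, 10624118 for GMTMS and 11904484 for GMTMM. Sall4 had 0, 1190 and 1060 counts in that order and Mesp1 had 0 in all, so the third library carried counts of Sall4, which its label does not name, and none of the mouse Mesp1 gene, which it does. A Mesp1 transgene of another species or with changed codons might not be counted at the mouse gene, and the sequence delivered was not examined here. It is called here the library labelled GMTMM, and each direction drawn from it below is a direction of that library. Of 14 cardiomyocyte markers 7, Myh6 among them, were at 0 in MICFs. By the rule given below, 12 of the 13 that could be tested were higher than MICFs in GMTMS and 10 in the library labelled GMTMM. Of all tested genes 8.32% and 6.26% were higher. The tested markers at 0 in MICFs, and Actc1 and Tnnt2 with 1 and 3 counts there, passed the count filter only through the sorted libraries. Those libraries were also sorted for the Myh6 reporter, so these calls are not independent of the filter and the sort. The macrophage markers were abundant in every library, with a summed FPKM of 9815, 20334 and 9546, and the 10 fibroblast markers summed to 1901, 516 and 3532 (in each case for MICFs, GMTMS and the library labelled GMTMM). A lower level of a gene in such mixtures can come from fewer cells of a type or from less RNA per cell, and these cannot be told apart.

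Levels are the deposited FPKM, which scale fragment counts by gene length and library size. Differences were taken on log2(FPKM + 1) after quantile normalization over the 3 libraries, and a gene was called higher or lower where the difference was over 1, as the design has no replicate and gives no test. Intervals are exact 95% intervals (Clopper-Pearson) on the counts and cover counting error only. Of the 107 members, 103 had over 10 counts in at least 1 library and were tested. The 4 others were Cox7b2, Cox8c and the second Atp5o gene model, all at 0 in each library, and mt-Atp8 with 5, 6 and 1 counts. Cox8b passed only through the 11 counts of GMTMS, and Cox7a1, with 10 counts in MICFs, only through the sorted libraries in which it is high, so their place among the tested genes and their calls are not independent.

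Few members were called in GMTMS against MICFs. Higher were 3 of 103 (2.91%), namely Cox6a2, Cox7a1 and Cox8b, beside 8.32% of the 13501 protein-coding genes tested. Lower were Cox4i2 and Ndufa4l2, 2 of 103 (1.94%), beside 9.33% of all tested genes. All 5 belong to the complex IV group, and no member of complexes I, II, III or V and no complex I assembly factor was called. The median difference of the 91 nuclear members tested was -0.14, with a range of -2.33 to 2.18, beside -0.09 over all tested genes and -0.10 over the 2398 tested genes with a mean FPKM of 20 or more. In all, 83 of the 91 nuclear members lay within 0.5 of no difference.

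**Figure D1:**
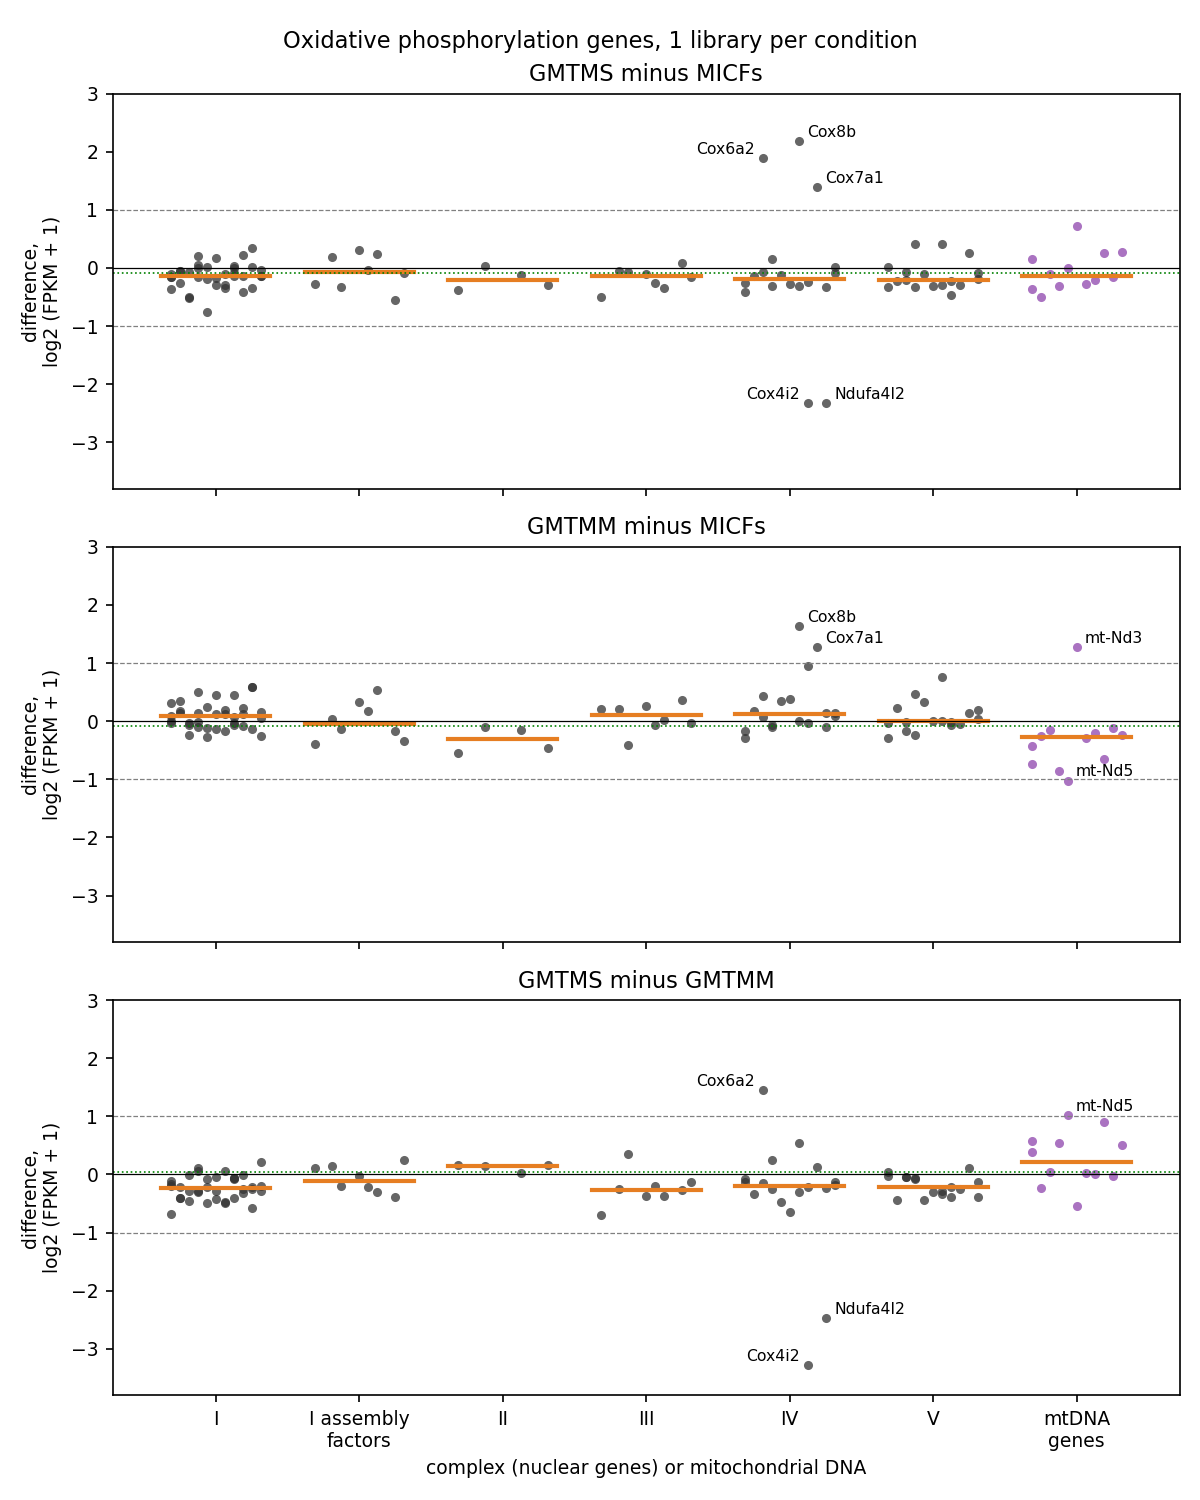
Each point is 1 tested gene, placed by complex (nuclear genes) or with the mitochondrial DNA genes, and its height is the difference in log2(FPKM + 1) between 2 libraries, where orange bars are group medians, the dotted green line is the median of all 13501 tested genes and dashed lines mark differences of 1 and -1. The named genes are those past 1, which in GMTMS minus MICFs lie only in complex IV, between -2.33 (Ndufa4l2) and 2.18 (Cox8b).

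In the library labelled GMTMM against MICFs, Cox7a1, Cox8b and mt-Nd3 were higher (3 of 103, 2.91%), beside 6.26% of all tested genes. Only mt-Nd5 was lower (1 of 103, 0.971%), beside 3.21% of all tested genes. The nuclear median was 0.04, with a range of -0.55 to 1.63, beside -0.08 for all tested genes. Both comparisons use the same MICFs library, so their values share its counting error. Between the sorted libraries, Cox6a2 and mt-Nd5 were higher in GMTMS than in the library labelled GMTMM (2 of 103, 1.94%, beside 5.33% of all tested genes), and Cox4i2 and Ndufa4l2 were lower (2 of 103, beside 9.9%). In the plot of differences by complex Cox6a2, Cox4i2 and Ndufa4l2 stand apart from the other nuclear members, the median of all 91 being -0.21, whereas mt-Nd5 at 1.02 lies beside mt-Nd4l at 0.90.

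Cox6a2, the heart and skeletal muscle form of subunit VIa, lies at chr7:128205435-128206387 on the minus strand. It had 25 counts in MICFs, 76 in GMTMS and 30 in the library labelled GMTMM, or FPKM of 2.56, 12.0 and 3.78. GMTMS stood apart from both other libraries, 4.71-fold above MICFs (95% interval 2.96 to 7.73) and 3.19-fold above the library labelled GMTMM (2.06 to 5.04). The fold of the library labelled GMTMM over MICFs was 1.48 with an interval of 0.840 to 2.62 that holds 1. On the normalized scale the differences from MICFs were 1.89 and 0.44. Part of the gene, 10.3% of its exon bases, lies in exons of Itgad, and without knowledge of how strand was handled reads of that stretch could belong to either gene. Itgad itself had 3, 1 and 0 counts in MICFs, GMTMS and the library labelled GMTMM, and its part in the Cox6a2 counts was not tested.

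Cox7a1, the muscle form of subunit VIIa that is also known from brown fat, lies at chr7:30184144-30186078 on the plus strand. Its counts were 10, 23 and 28, and its FPKM 1.30, 4.63 and 4.48 (MICFs, GMTMS and the library labelled GMTMM). Both sorted libraries were above MICFs, by 3.56-fold (1.63 to 8.39) and 3.45-fold (1.63 to 7.96), and they differed from each other by less than counting error (1.03-fold, 0.568 to 1.86). Over 8 other scalings the GMTMS difference of 1.39 ran from 0.79 to 1.90 and passed 1 in 7, and the GMTMM difference of 1.27 ran from 0.87 to 1.75 and also passed in 7.

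Cox8b, the muscle form of subunit VIII, lies at chr7:140898945-140900446 on the minus strand. No read was counted in MICFs, 11 in GMTMS and 9 in the library labelled GMTMM, which gave FPKM of 3.29 and 2.14 in the sorted libraries. With 3 counts put in place of 0 in MICFs, the fold was 5.68 in GMTMS and 3.70 in the library labelled GMTMM. These folds leave out the counting error of the 11 and 9 counts and so are not lower limits. The difference between the sorted libraries was within counting error (1.54-fold, 0.579 to 4.20). Its normalized differences from MICFs, 2.18 and 1.63, passed 1 under 8 and 7 of the 8 other scalings.

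The ubiquitous partners of these 3 isoforms, Cox6a1, Cox7a2 and Cox8a, stayed the main form in all libraries. Cox6a1 had 1601, 1341 and 1948 counts, Cox7a2 had 390, 303 and 525, and Cox8a had 1126, 1099 and 1477, in the same order. The muscle form made up 1.59% (1.03 to 2.33) of the summed FPKM of Cox6a2 and Cox6a1 in MICFs, 5.53% (4.38 to 6.87) in GMTMS and 1.56% (1.06 to 2.23) in the library labelled GMTMM. A share within 1 library does not depend on the scaling between libraries, and for Cox6a2 the interval of GMTMS lies above those of both other libraries. For Cox7a1 the shares were 4.33% (2.11 to 7.76), 11.8% (7.72 to 17.0) and 8.60% (5.83 to 12.1), and all 3 intervals overlap, those of MICFs and GMTMS by a narrow margin. Cox8b had 0 counts beside 1126 of Cox8a in MICFs, a share with an exact upper limit of 0.494% of the summed FPKM. Its share was 1.49% (0.749 to 2.65) in GMTMS and 0.914% (0.419 to 1.73) in the library labelled GMTMM. The interval of MICFs lies below that of GMTMS and overlaps that of the library labelled GMTMM. Summed over the 3 pairs, the muscle isoforms had 35 counts in MICFs, 110 in GMTMS and 67 in the library labelled GMTMM, or 1.15%, 4.18% and 1.97% of the FPKM of the 6 genes. The 14 cardiomyocyte markers summed to FPKM of 40.2, 1621 and 635, in the same order of libraries, and what part a larger share of muscle-like cells has in the isoform levels was not tested.

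**Figure D2:**
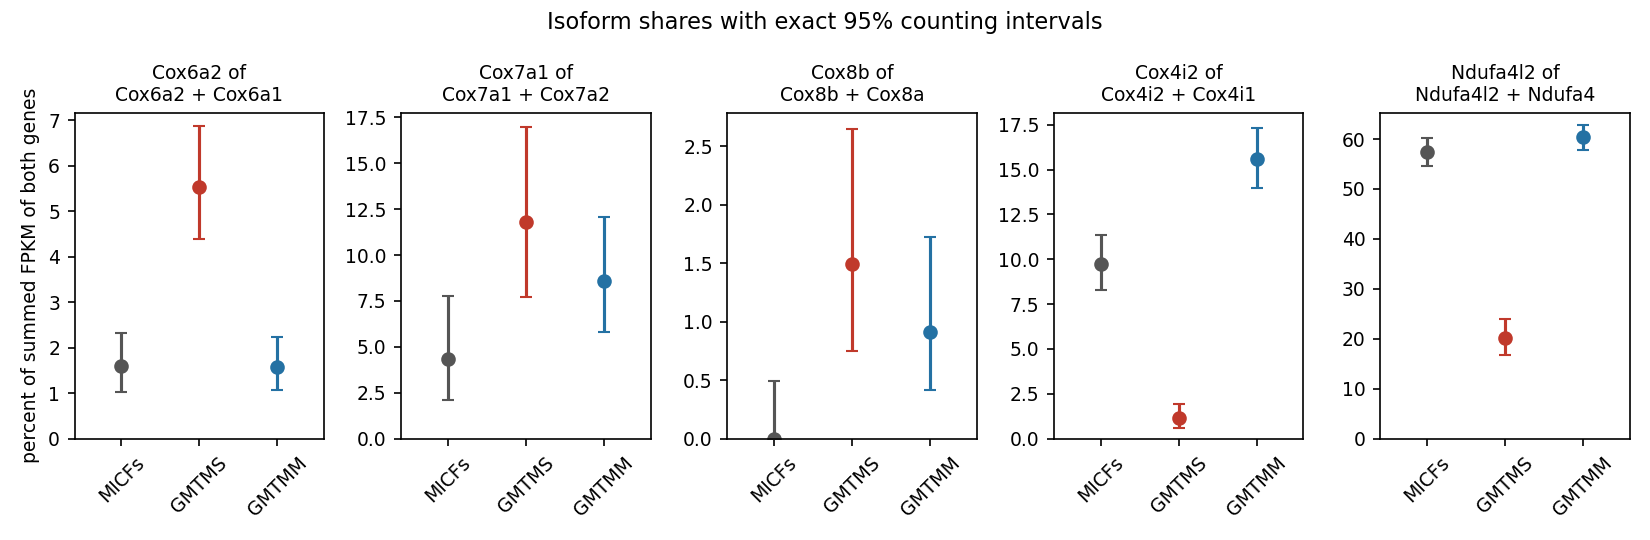
Each panel gives, for the 3 libraries, the FPKM of 1 isoform as a percentage of the summed FPKM of that isoform and its common partner, with bars for the exact 95% counting interval, and the vertical scale differs between panels and starts at 0. Cox6a2 is highest in GMTMS at 5.53%, whereas Cox4i2 and Ndufa4l2 are lowest there, at 1.15% and 20.2%.

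Heart and skeletal muscle share these isoforms, so 11 markers of skeletal muscle were read beside them, which summed to FPKM of 1.60, 18.0 and 9.26. Myod1, Myog, Myf5, Myf6 and Myh4 were at 0 in all 3 libraries. Only 3 of the 11 had over 10 counts in a library. Of these Mylpf, a myosin light chain of fast muscle, had 10, 157 and 76 counts and was higher in GMTMS by 3.31 and in the library labelled GMTMM by 2.09. Tnnt3, the fast troponin T, had 16, 13 and 48 counts and was higher in the library labelled GMTMM by 1.07, and Ckm, which heart muscle also expresses, had 0, 15 and 3. The part of such cells in the isoform levels was not tested. Mb (myoglobin, the oxygen store of heart and slow muscle) had 0, 77 and 36 counts and was higher in both sorted libraries, by 2.75 in GMTMS and 1.60 in the library labelled GMTMM. Ckmt2, the muscle creatine kinase of mitochondria, was at 0 in all libraries.

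The windows of 250 bases before the transcript start are shown for the muscle isoforms Cox7a1 and Cox8b, which were higher in both sorted libraries, and for the ubiquitous partners Cox7a2 and Cox8a, which were not called, so that the pairs can be compared. They are RefSeq sequences of GRCm38.p6, read 5′ to 3′ on the strand of the gene, and lie at chr7:30183921-30184170 (plus), chr7:140900447-140900696 (minus), chr9:79759854-79760103 (minus) and chr19:7217617-7217866 (minus). The last bases of the Cox7a1 and Cox7a2 windows fall inside the gene as the count table bounds it. Capitals mark the letters CANNTG (the E-box) and CCGGAA or its reverse complement TTCCGG (the core of ETS sites, which GABPA binds). TATAAA was also searched on both strands and occurs in none of the 4.
Cox7a1: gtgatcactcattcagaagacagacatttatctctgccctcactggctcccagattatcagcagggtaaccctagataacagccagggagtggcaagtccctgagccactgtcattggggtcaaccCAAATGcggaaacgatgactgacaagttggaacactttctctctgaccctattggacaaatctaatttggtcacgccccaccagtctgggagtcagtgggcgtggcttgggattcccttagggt
Cox8b: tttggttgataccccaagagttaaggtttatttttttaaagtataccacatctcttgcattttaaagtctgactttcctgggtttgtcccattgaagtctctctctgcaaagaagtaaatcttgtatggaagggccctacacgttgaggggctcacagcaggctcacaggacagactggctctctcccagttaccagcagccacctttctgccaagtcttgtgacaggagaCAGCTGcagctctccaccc
Cox7a2: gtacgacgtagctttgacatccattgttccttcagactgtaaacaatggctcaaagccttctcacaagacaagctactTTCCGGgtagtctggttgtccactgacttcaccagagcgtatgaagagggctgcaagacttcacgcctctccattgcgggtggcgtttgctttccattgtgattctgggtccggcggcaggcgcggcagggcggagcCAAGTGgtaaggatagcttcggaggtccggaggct
Cox8a: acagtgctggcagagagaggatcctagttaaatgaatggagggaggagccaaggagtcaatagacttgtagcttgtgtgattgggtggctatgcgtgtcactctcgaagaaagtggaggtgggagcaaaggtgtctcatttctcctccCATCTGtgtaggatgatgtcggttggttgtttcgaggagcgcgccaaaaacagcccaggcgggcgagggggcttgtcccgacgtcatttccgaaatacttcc
Each window holds 1 E-box, and only the Cox7a2 window holds an ETS core. Over the promoters matched for the members, 79 promoters of 74 of the 94 nuclear genes, CCGGAA occurred on either strand in 27.8%, against 12.0% of all 32851 promoters. CANNTG occurred in 63.3% against 66.2% and TATAAA in 8.86% against 12.4%, and the median GC content was 56.4% against 52.4%. Matches of the motifs were counted independently, overlaps included, and the shares describe letters in these windows, not bound sites.

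Cox4i2 and Ndufa4l2 differed from MICFs in the other direction in GMTMS. Cox4i2, the second form of subunit IV that is known for its induction at low oxygen, lies at chr2:152754173-152765037 on the plus strand. It had 142 counts in MICFs, 13 in GMTMS and 271 in the library labelled GMTMM, with FPKM of 12.5, 1.78 and 29.4. GMTMS was 7.05-fold below MICFs (3.99 to 13.6), and the library labelled GMTMM was 2.35-fold above it (1.91 to 2.90), a difference of 0.95 on the normalized scale. That value missed the rule, but it was 1.17 without quantile normalization, 1.19 by TMM and 1.23 by DESeq2 size factors. Under each of them the members higher in the library labelled GMTMM were 4 in place of 3. The share of all tested genes under these scalings is not given, so that count has none beside it. Cox4i1, the common form, had 2585, 2204 and 2883 counts, so Cox4i2 made up 9.75% (8.31 to 11.3), 1.15% (0.613 to 1.95) and 15.6% (14.0 to 17.3) of their summed FPKM.

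Ndufa4l2, a paralogue of Ndufa4 that is induced at low oxygen and lowers complex I activity, lies at chr10:127514967-127517154 on the plus strand. Its counts were 616, 94 and 779 and its FPKM 39.1, 9.24 and 60.9, so that GMTMS was 4.23-fold below MICFs (3.40 to 5.31) and 6.59-fold below the library labelled GMTMM (5.31 to 8.25). Ndufa4, once assigned to complex I and now to complex IV, had 578, 468 and 644 counts. The paralogue therefore held the larger share of their summed FPKM in MICFs (57.3%, 54.5 to 60.1) and in the library labelled GMTMM (60.4%, 57.9 to 62.9), and the smaller share in GMTMS (20.2%, 16.7 to 24.1). For both genes the difference between GMTMS and either other library passed 1 under all 8 other scalings.

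Cox4i2 and Ndufa4l2 are also known as genes of pericytes, the mural cells of small vessels, and cells of vessels and stroma differed between these libraries. A list of 8 pericyte markers summed to FPKM of 300, 29.5 and 420 in MICFs, GMTMS and the library labelled GMTMM. In GMTMS 7 of the 8 were lower than in MICFs, with a median of -2.75, the exception being Cspg4 at 0.76, and in the library labelled GMTMM 1 was higher (Rgs5, 1.67), with a median of 0.58. All 8 had counts in every library. The 8 endothelial markers summed to 434, 11.9 and 315, and all 8 were lower in GMTMS. The 10 fibroblast markers were likewise all lower in GMTMS, with a median of -3.00, and had a median of 0.20 in the library labelled GMTMM. Of 10 genes known to respond to low oxygen, 1 was higher in GMTMS than in MICFs (Slc2a1, the glucose transporter, 1.34) and 1 lower (Adm, adrenomedullin, -3.27), with a median of -0.05. In the library labelled GMTMM 3 of the 10 were higher, namely Slc2a1 (1.95), Egln3 (1.38) and Ankrd37 (1.18). The pericyte and low oxygen lists were chosen after the values of Cox4i2 and Ndufa4l2 were seen, and the part of these cells or of oxygen in the 2 genes' levels was not tested.

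The remaining paired isoforms showed little. Cox6b2, known as the testis form of subunit VIb, had 36, 15 and 41 counts and held 2.42% (1.70 to 3.35), 1.27% (0.709 to 2.09) and 2.40% (1.72 to 3.25) of the summed FPKM with Cox6b1, shares whose intervals overlap. Cox7b2 and Cox8c, also testis forms, had no counts.

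Complex by complex, the nuclear subunits kept nearly the same proportions. Complex I, the NADH dehydrogenase with 36 members, had a summed FPKM of 687 in MICFs, 755 in GMTMS and 917 in the library labelled GMTMM, or 26.9%, 24.9% and 26.0% of the FPKM of all nuclear members. Complex III (8 members, ubiquinol to cytochrome c) held 11.2%, 11.7% and 11.9%. Complex IV (20 members) held 34.9%, 36.8% and 36.9%, and complex V, the ATP synthase with 18 members, held 20.8%, 20.9% and 20.5%. These 4 complexes varied by at most a few percent of the total between libraries, with complex IV lowest and complex I highest in MICFs.

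Complex II, succinate dehydrogenase, which also works in the citric acid cycle, took 5.02%, 4.88% and 3.71% of the nuclear FPKM. Its 4 genes all lay below 0 in the library labelled GMTMM minus MICFs, with a median of -0.30. There complexes I, III, IV and V had medians of 0.08, 0.11, 0.12 and -0.01. The median was -0.05 for the complex I assembly factors and -0.08 for all tested genes. The flavoprotein gene Sdha had 2364, 1659 and 1804 counts, and its differences from MICFs were -0.38 in GMTMS and -0.55 in the library labelled GMTMM. Sdhb, the iron-sulphur subunit, differed by -0.12 and -0.15, and the membrane anchors differed by 0.04 and -0.10 (Sdhc) and by -0.30 and -0.46 (Sdhd). All 4 lay above 0 in GMTMS minus the library labelled GMTMM, between 0.03 and 0.17, so these are small differences, none of them called, and on deposited FPKM only Sdha of the 4 was below MICFs in the library labelled GMTMM (0.940-fold, 0.884 to 1.00).

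Within complex I the differences of GMTMS from MICFs ran from -0.76 for Ndufa8 to 0.34 for Ndufb4, both accessory subunits. Ndufa8 had 476, 253 and 441 counts, and in GMTMS its deposited FPKM was 0.823-fold that of MICFs (0.704 to 0.961). In the library labelled GMTMM the highest was Ndufs4, at 0.59, with 263, 172 and 358 counts and a fold of 1.68 over MICFs (1.43 to 1.97). Among the 8 assembly factors of complex I, which build the complex and are not part of it, Ndufaf7 was lowest in GMTMS at -0.56, with 166, 54 and 114 counts. In complex III, Uqcr10 was lowest in GMTMS at -0.50 and Uqcrh highest at 0.08. In complex V the catalytic beta subunit Atp5b was lowest at -0.46 and Atp5l highest at 0.41, and in the library labelled GMTMM Atp5o was highest at 0.75. For Atp5o 47.9% of exon bases overlap exons of another gene, and for Ndufb4 29.3% of words of 150 bases also occur in another gene, the pseudogene Ndufb4c sharing most, so their counts are uncertain.

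The direction of the bulk of nuclear members depended on the scaling. On quantile-normalized values 68 of the 91 lay below 0 in GMTMS minus MICFs, with a median of -0.14. On deposited FPKM without quantile normalization 75 of the 91 lay above 0, with a median of 0.17, and the median fold was 1.13. Of the 90 with counts in both libraries, 43 had a counting interval of the fold above 1, 6 below 1 and 41 around 1. The same change of scale moved the median of all abundant genes from -0.10 to 0.38, so that nuclear members stood -0.04 from the abundant genes with quantile normalization and -0.21 without it. In the library labelled GMTMM minus MICFs the nuclear median was 0.04 with it and 0.38 without it, and it stood above the abundant genes by 0.14 and 0.06. In GMTMS minus the library labelled GMTMM the median was negative under every scaling tried, between -0.37 and -0.20, and lay below that of the abundant genes each time.

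**Figure D3:**
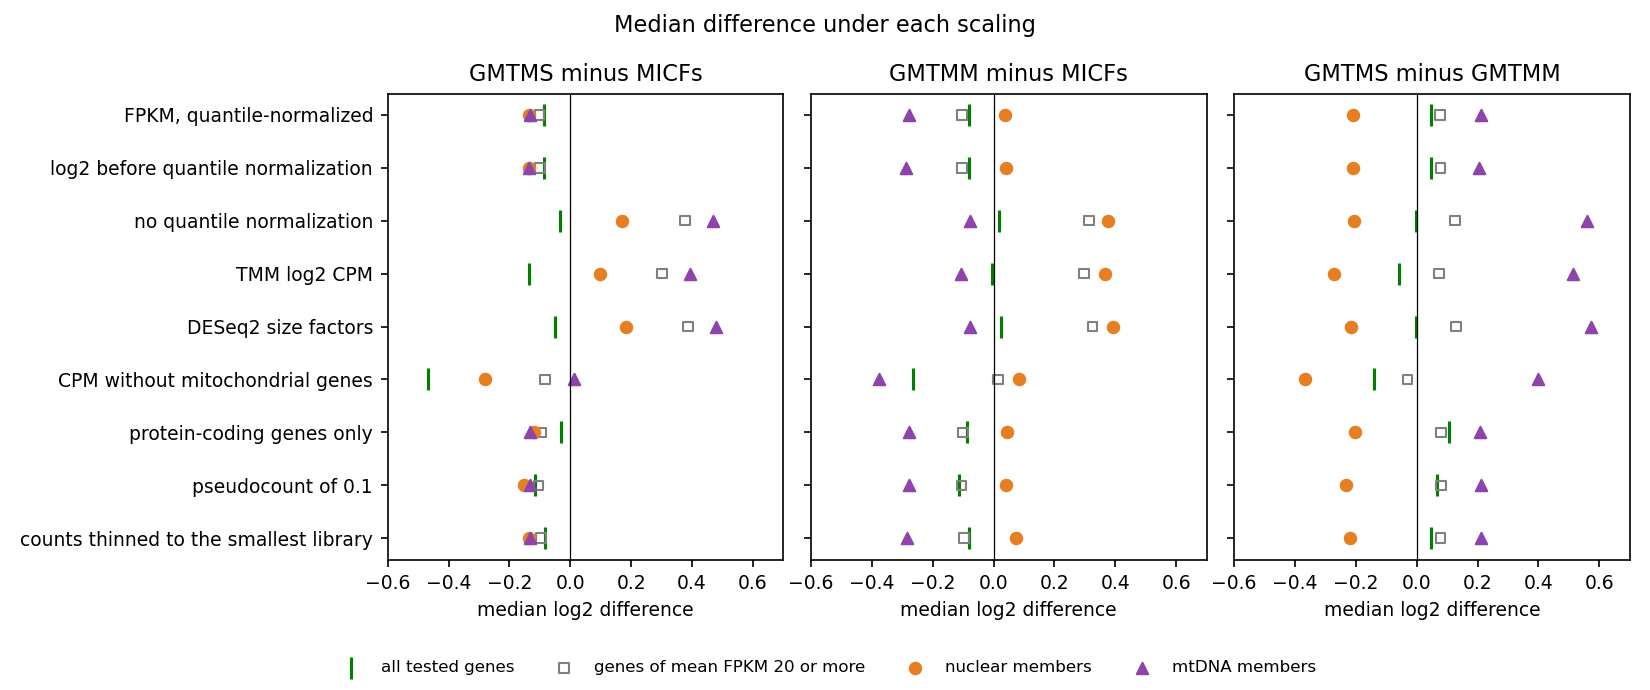
Median log2 difference of all tested genes (bars), of tested genes with a mean FPKM of 20 or more (squares), of the 91 nuclear members (circles) and of the 12 mitochondrial DNA members (triangles) under quantile-normalized FPKM (top line) and 8 other scalings, for each pair of libraries. The circles for GMTMS minus MICFs lie on either side of 0, from -0.28 to 0.18, and those for GMTMS minus GMTMM stay below 0.

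As shares of library counts, transcripts of mitochondrial DNA were highest in GMTMS, which over MICFs rested on mt-Co1, and nuclear members were lowest there. The 13 mitochondrial genes made up 1.62% of all counts in MICFs (1.62 to 1.63), 1.74% in GMTMS (1.73 to 1.74) and 1.32% in the library labelled GMTMM (1.31 to 1.32). The 94 nuclear members made up 0.503% (0.499 to 0.507), 0.424% (0.420 to 0.428) and 0.543% (0.539 to 0.547). Without mt-Co1 the mitochondrial share was 0.762% (0.757 to 0.766) in MICFs, 0.753% (0.748 to 0.758) in GMTMS and 0.587% (0.583 to 0.591) in the library labelled GMTMM, so that by this share GMTMS was then no longer above MICFs. Deposited FPKM, which use another library size, gave another order. Without mt-Co1 the mitochondrial genes summed to 5621, 7687 and 5437 FPKM, so GMTMS stayed above MICFs. The nuclear members summed to 2557, 3037 and 3532 FPKM, lowest in MICFs. The ratio of mitochondrial to nuclear counts was 3.23 (3.20 to 3.26), 4.09 (4.05 to 4.13) and 2.43 (2.41 to 2.45) in the same order. These intervals do not overlap, but they leave out the spread between cultures, which 1 library per condition cannot give. The summed macrophage markers were also highest in GMTMS, at 20334 FPKM against 9815 and 9546, and their part in the ratio was not tested.

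Most of the mitochondrial counts came from mt-Co1, the catalytic subunit of complex IV, with 102269, 104323 and 87031 counts, or 53.1%, 56.6% and 55.5% of the 13 genes. The next were mt-Cytb of complex III, with 23267, 19345 and 17117 counts, and mt-Nd5, mt-Nd2, mt-Nd1 and mt-Nd4 of complex I. The medians of the 12 tested genes were -0.13 in GMTMS and -0.28 in the library labelled GMTMM, both against MICFs, and 0.21 between the sorted libraries. Of the abundant genes mt-Nd5 differed most. Its counts were 18591, 17859 and 10557 and its FPKM 708, 1054 and 495, so that the library labelled GMTMM was 1.43-fold below MICFs (1.40 to 1.46) and GMTMS was 2.13-fold above the library labelled GMTMM (2.08 to 2.18). Its difference of -1.02 between the library labelled GMTMM and MICFs ran from -1.05 to -0.51 over 8 other scalings and passed 1 in 4. Quantile normalization gives all genes of a rank the same value, so mt-Nd5, which kept its rank, differed by 0.00 between GMTMS and MICFs on that scale, against a fold of 1.49 (1.46 to 1.52) on deposited FPKM.

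Of the mitochondrial genes at low levels, all but mt-Atp8 share nearly all their sequence with annotated transcripts of other genes. Only annotated transcripts were searched, so an unannotated copy of mt-Atp8 would have been missed. Of the words of 150 bases, the read length, over 90% also occur in transcripts of another gene for 5 genes, namely mt-Co2, mt-Co3, mt-Atp6, mt-Nd3 and mt-Nd4l. These 5 had FPKM of 10.1 to 37.7 in MICFs and 804, 683 and 630 counts in all (MICFs, GMTMS and the library labelled GMTMM). The other 7 tested genes had FPKM of 495 or more in every library. The copies with which mitochondrial genes share most words include 7 unprocessed pseudogenes on chromosome 1, which had 1038, 834 and 892 counts. For mt-Nd4 59.2% of the words were shared and for mt-Co1 23.6%, and for the other 6 genes under 10%. How reads with several matches were counted is not given in the sources used here. So the level of the 5 genes, and the call of mt-Nd3 (55, 69 and 129 counts, 97.0% of words shared), are uncertain. Over the 6 genes with under 10% of words shared the counts made up 0.647% (0.642 to 0.651), 0.652% (0.647 to 0.657) and 0.482% (0.478 to 0.486) of the libraries, with overlapping intervals for MICFs and GMTMS.

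**Figure D4:**
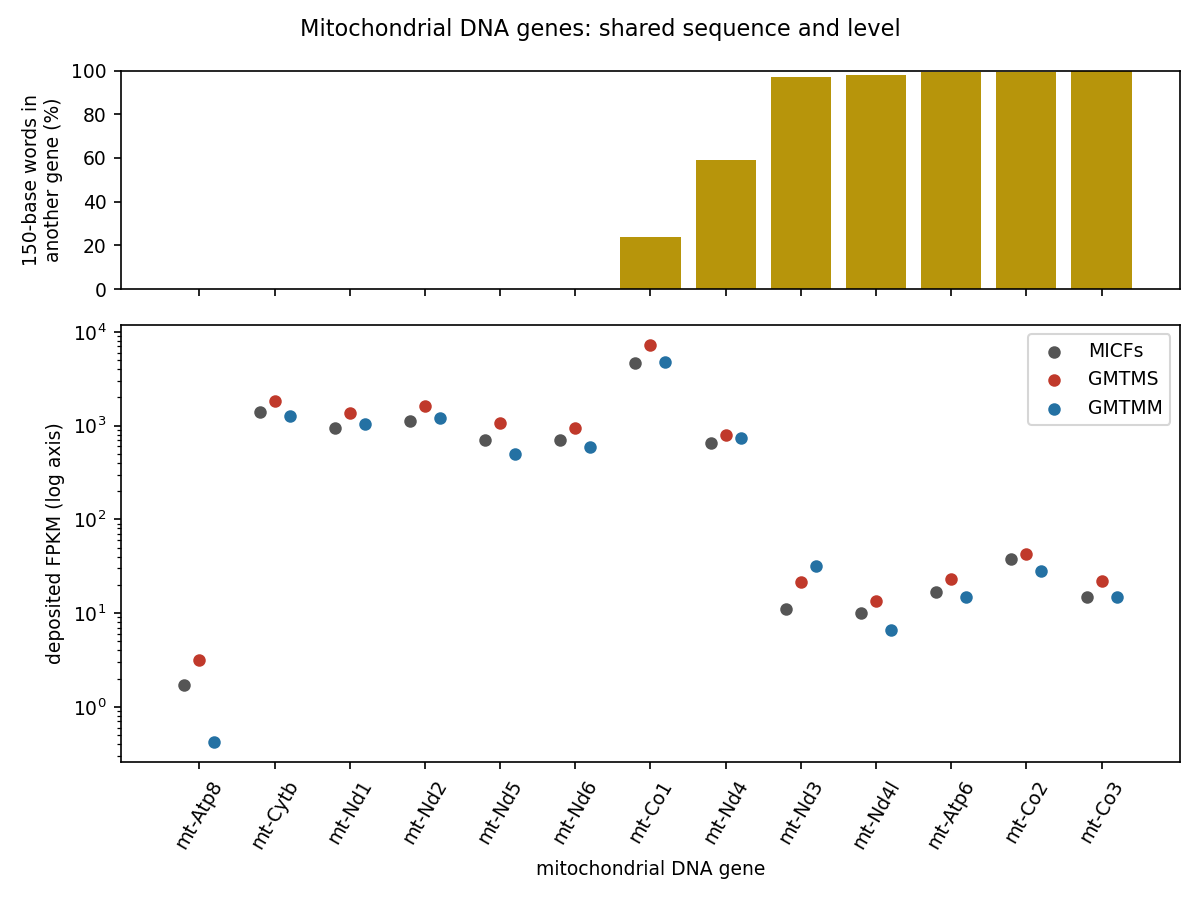
Upper bars give, for each mitochondrial DNA gene, the percentage of its 150-base words that also occur in transcripts of another gene, and lower points its deposited FPKM in each library on a log axis. The 5 genes with over 90% of words shared lie at 6.63 to 42.8 FPKM, whereas mt-Co1, with 23.6% shared, lies between 4600 and 7270.

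Other genes of the pathway were taken from lists chosen by function, and their counts stand beside the shares of all tested genes given above (8.32% higher and 9.33% lower in GMTMS, 6.26% and 3.21% in the library labelled GMTMM). Cytochrome c1 (Cyc1) is a subunit of complex III that the name rule left out of the members. Cytochrome c (Cycs) carries electrons from complex III to complex IV. Cyc1 and Cycs differed from MICFs by 0.24 and 0.30 in GMTMS and by 0.23 and 0.57 in the library labelled GMTMM. Of 29 tested assembly factors of complexes II to V, Sco1 (a copper chaperone of complex IV) was higher in GMTMS at 1.11, and Coa3 (complex IV) at -1.14 and Uqcc3 (complex III) at -1.03 were lower, whereas none was called in the library labelled GMTMM. The 2 lower calls depended on quantile normalization. Deposited FPKM in MICFs and GMTMS were 31.6 and 18.0 for Coa3 and 17.5 and 9.48 for Uqcc3, neither of which passes a difference of 1. The medians of the 29 were -0.09 and -0.19. None of the 14 genes of the citric acid cycle was called in either comparison with MICFs, the lowest in GMTMS being Fh1 (fumarase) at -0.46 and the highest Suclg1 at 0.24. None of 77 mitochondrial ribosomal protein genes was called in them either, between -0.74 for Mrpl41 and 0.70 for Mrps18c in GMTMS.

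Of 18 tested genes of mitochondrial biogenesis and mitochondrial DNA expression, Ppargc1b (a coactivator of mitochondrial genes) was higher in GMTMS at 1.13, with 24, 70 and 26 counts. Tefm, the elongation factor of mitochondrial transcription, was lower in the library labelled GMTMM at -1.04. Ppargc1a, the coactivator best known from heart and muscle, had 2, 6 and 10 counts and Esrrg, its partner in the heart, 4, 0 and 14. Ppargc1a thus missed the filter on counts, and Esrrg differed from MICFs by -0.06 in GMTMS and 0.18 in the library labelled GMTMM, on a scale that understates the change of low genes. The nuclear regulators Nrf1, Tfam and Esrra differed from MICFs by 0.24, 0.30 and -0.26 in GMTMS and by 0.16, 0.67 and -0.53 in the library labelled GMTMM. Among 10 tested genes of energy transfer, Mb alone was called in comparisons with MICFs, and Slc25a4, the ADP/ATP carrier of heart and muscle, was the lowest in GMTMS at -0.94, with 2299, 1162 and 2387 counts. On deposited FPKM its fall was smaller, from 67.9 in MICFs to 53.2 in GMTMS.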

How the data were processed

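Total RNA from 3 mouse samples was sequenced as paired 150-base reads. The authors deposited gene counts, not normalized, and gene FPKM, whose library size equals the DESeq2 size factor times a constant. The submitters' processing notes name HISAT2 2.0.5 and mm9, but the gene bounds in the deposited tables equal those of GRCm38 (GENCODE M21) for 98.3% of shared identifiers. The deposited column cMF was read as MICFs, since the other columns name the cocktails. Counting tool, strand and multiple matches are not given in the sources used here.

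FPKM were quantile-normalized over the 3 libraries and transformed as log2(FPKM + 1), the pseudocount being 1. A difference over 1 was called among 13501 protein-coding genes with over 10 counts in at least 1 library. With 1 library per condition no test was run. Folds and shares have exact 95% intervals on counts. On simulated counts 186 of 200 genes changed 4-fold (93%) were recovered between GMTMS and MICFs. These were drawn from genes with higher mean counts than Cox6a2, Cox7a1 and Cox8b, so the rate does not cover those 3. The simulation held counting error only and no spread between cultures. Named genes were the extremes of each complex and list, isoform pairs, mitochondrial genes and called members. Members and lists were chosen with earlier results of these data known, and the pericyte and low oxygen lists and the measure over mitochondrial genes with little shared sequence after seeing these values. Other scalings came from edgeR 4.0.16 and DESeq2 1.42.0 in R 4.3.3, and calculations used Python 3.11.15, pandas 2.3.3 and SciPy 1.17.1.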

Additional observations from a re-analysis of the deposited data

Results flagged for a closer look

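Cox4i2 and Ndufa4l2 were lower in GMTMS than in MICFs. In the library labelled GMTMM they differed from MICFs by 0.95 and 0.14 on the quantile-normalized scale, and neither was called there. GMTMS minus GMTMM was -3.27 for Cox4i2 and -2.47 for Ndufa4l2. With 1 library on each side, this difference between the cocktails was not tested, and the third library had counts of Sall4 and none at the mouse Mesp1 gene, where a transgene of changed sequence might not be counted. The summed FPKM of 8 pericyte markers (300, 29.5 and 420 in MICFs, GMTMS and the library labelled GMTMM) had the same order as the FPKM of both genes. So had that of the 10 fibroblast markers (1901, 516 and 3532). The 8 endothelial markers (434, 11.9 and 315) were also lowest in GMTMS but highest in MICFs. The part of any of these cells in the result was not tested.

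Some genes with names of the family are not protein-coding and so are no members. Ndufb1-ps, listed as a bidirectional promoter lncRNA, had 227, 293 and 323 counts and FPKM of 13.7 in MICFs, 27.4 in GMTMS and 24.0 in the library labelled GMTMM, which is 2.00-fold (1.68 to 2.39) and 1.75-fold (1.47 to 2.09) MICFs. Ndufab1-ps, a processed pseudogene, had 32, 16 and 65 counts and FPKM of 4.75 in MICFs, 3.68 in GMTMS and 11.9 in the library labelled GMTMM. It was 2.50-fold MICFs (1.61 to 3.95) in the library labelled GMTMM and 0.775-fold (0.397 to 1.45) in GMTMS. Ndufb1-ps thus stood above MICFs in both sorted libraries and Ndufab1-ps in the library labelled GMTMM alone, and whether reads of a parent gene were counted at them was not tested.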

How the results depend on the processing

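No paired analysis was possible because the study holds 1 library for every condition, and for the same reason no library could be left out. Of 144 values recomputed for 33 results of the comparisons, 102 stayed close and 42 moved. Close meant a move of less than counting error or, for counts of genes, a value within 1.5 times. Changes of sign were not counted among these results. The nuclear median of GMTMS minus MICFs did change sign, from -0.14 to 0.17 without quantile normalization, 0.10 by TMM and 0.18 by DESeq2 size factors. That of GMTMM minus MICFs became 0.38, 0.36 and 0.39 under the same scalings. The mitochondrial minus the nuclear median became 0.30, 0.30, 0.30 and 0.29 in GMTMS minus MICFs, and 0.77, 0.79, 0.79 and 0.77 in GMTMS minus GMTMM, without quantile normalization, by TMM, by DESeq2 size factors and by CPM without mitochondrial genes. Under these same 4 scalings 0 members were lower in GMTMM minus MICFs, and with CPM without mitochondrial genes 1 was higher there and 1 higher in GMTMS minus GMTMM. At a difference of 0.5, 6 members were lower in GMTMS minus MICFs, 8 higher and 5 lower in GMTMM minus MICFs, and 7 higher and 7 lower in GMTMS minus GMTMM. At a difference of 2, 1 was higher in GMTMS minus MICFs, 0 higher and 0 lower in GMTMM minus MICFs, and 0 higher in GMTMS minus GMTMM. Shares of all tested genes are given only for a difference over 1 on the quantile-normalized scale. The counts of members at other thresholds and scalings therefore have no such share beside them and are not read as a result about the members. As a share of protein-coding counts mitochondrial genes took 1.65%, 1.76% and 1.34%, and nuclear members 0.511%, 0.431% and 0.551%. Without length correction the share of Cox7a1 was 7.06% in GMTMS and 5.06% in GMTMM, that of Cox4i2 was 5.21%, 0.586% and 8.59%, and that of Ndufa4l2 was 51.6% in MICFs and 54.7% in GMTMM. Where a scaling moved a value, the cause was not tested. Depth limits the muscle isoforms, since Cox8b rests on 11 and 9 counts and Cox7a1 on 10 counts in MICFs.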
